A study of Mus musculus with 2 samples.

Results

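The small leucine-rich proteoglycans are secreted matrix proteins with a core of leucine-rich repeats, and 9 of their genes were followed here: Dcn, Bgn, Aspn, Lum, Fmod, Prelp, Kera, Omd and Ogn. They were chosen by gene symbol, with earlier results of these data known, and all 9 were found among the 55536 Ensembl genes of the deposited gene table. Libraries were made from total RNA of a calf muscle, the gastrocnemius, of 2 male B6CASTF1/J mice aged 36 days from The Jackson Laboratory. B6CASTF1/J is the first-generation cross of a laboratory strain with the wild-derived CAST strain, and each deposited value counts both parental alleles together. Each library started from 300 ng of RNA with added ERCC spike-in RNAs. The labels give each animal its own biosample and mouse number but 1 shared donor entry. Both animals, called replicate 1 and replicate 2 below, belong to 1 group for which the labels name no treatment, so no contrast between conditions exists, no test was possible and no p-value is given. The spread between the libraries may be partly technical.

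The core proteins of this family bind collagen fibrils in the extracellular space, where they set the spacing and diameter of the fibrils. Most carry sulfated sugar chains: chondroitin or dermatan sulfate on decorin and biglycan, and keratan sulfate on several class II members. Several members also bind transforming growth factor beta or cell surface receptors, and in skeletal muscle they belong to the connective tissue around fibres and to the tendon, made largely by fibroblasts and tendon cells.

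The gene structures showed the classes plainly. Taking each gene's lowest-numbered transcript in the GENCODE annotation (mouse build mm10), the 3 class I genes Dcn, Bgn and Aspn each had 8 exons, of which 7 were coding. Coding exons 2, 3, 5 and 6 held 113, 214, 94 and 139 coding bases in all 3 of these genes, and coding exon 4 held 114 in Dcn but 111 in Bgn and Aspn. The 5 class II genes Lum, Fmod, Prelp, Kera and Omd each had 3 exons with 2 of them coding. Most of the class II protein sat in the first coding exon, which held between 862 bases (Lum) and 979 bases (Fmod). Omd stood out by its second coding exon of 329 bases, against 149 to 173 in the other class II genes, a stretch that encodes the end of the protein. Ogn, the class III member, had 7 exons with 6 coding and the shortest coding sequence, 894 bases, against 1269 in Omd, the longest.

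Start sites from RefSeq (GRCm38.p6) were matched for 7 of the 9 members, all but Dcn and Lum. The 250 bases before the start site are shown for 5 of them, written from 5′ to 3′ on the gene's strand. Fmod and Prelp are shown because they are neighbours on chromosome 1 with the highest and the lowest ratio between the animals. Ogn and Aspn are shown as chromosome 13 neighbours, and Bgn as the most GC-rich member. Capitals mark matches, on either strand, to any of 6 motifs. TATAAA is the core of the box bound by the basal initiation machinery, and GGGCGG is the GC box bound by Sp factors. CCAAT is bound by NF-Y, and CANNTG, the E box, by basic helix-loop-helix factors. TGANTCA is bound by AP-1 and reads alike on both strands, and CAGACA is a site bound by SMAD proteins. The sequence is that of the reference strain, and CAST alleles may differ from it.
Fmod, chr1:134037004-134037253, plus strand.
Fmod: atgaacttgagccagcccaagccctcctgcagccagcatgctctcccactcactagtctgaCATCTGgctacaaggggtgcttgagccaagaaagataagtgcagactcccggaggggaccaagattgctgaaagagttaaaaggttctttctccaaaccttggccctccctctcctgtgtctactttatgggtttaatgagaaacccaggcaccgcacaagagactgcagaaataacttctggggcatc
Prelp, chr1:133921402-133921651, minus strand.
Prelp: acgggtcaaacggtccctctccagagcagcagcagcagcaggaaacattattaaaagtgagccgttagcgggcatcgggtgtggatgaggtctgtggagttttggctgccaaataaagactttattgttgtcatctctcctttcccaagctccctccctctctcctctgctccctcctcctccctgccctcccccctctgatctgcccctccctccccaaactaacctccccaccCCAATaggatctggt
Ogn, chr13:49607765-49608014, plus strand.
Ogn: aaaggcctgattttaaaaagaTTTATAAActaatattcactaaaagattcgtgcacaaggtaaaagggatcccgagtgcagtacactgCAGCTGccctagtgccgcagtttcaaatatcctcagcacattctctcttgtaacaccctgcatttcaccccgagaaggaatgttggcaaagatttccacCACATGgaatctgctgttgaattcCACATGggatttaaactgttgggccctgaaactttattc
Aspn, chr13:49544193-49544442, plus strand.
Aspn: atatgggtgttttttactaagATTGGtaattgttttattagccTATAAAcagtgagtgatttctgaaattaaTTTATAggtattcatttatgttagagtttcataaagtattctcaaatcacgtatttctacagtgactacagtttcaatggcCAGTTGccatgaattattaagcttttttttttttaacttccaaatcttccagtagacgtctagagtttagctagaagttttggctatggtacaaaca
Bgn, chrX:73483351-73483600, plus strand.
Bgn: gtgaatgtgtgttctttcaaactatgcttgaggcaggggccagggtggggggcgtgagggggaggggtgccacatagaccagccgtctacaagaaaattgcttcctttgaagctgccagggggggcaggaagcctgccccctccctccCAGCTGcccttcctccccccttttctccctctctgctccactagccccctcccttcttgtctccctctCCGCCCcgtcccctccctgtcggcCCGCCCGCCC

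Bgn had 3 GC boxes, beginning 34, 10 and 6 bases before its start site, the last pair overlapping, and a GC content of 64.4%. It was the only 1 of the 7 members with GGGCGG, a motif in 32.7% of the 32851 promoters of the same length. TATAAA was found in 2 of the 7, Ogn and Aspn, against 12.4% of all promoters, at 229 and 227 bases (overlapping) and at 207 and 178 bases before the start. CCAAT was found in 3 members (Prelp, Aspn and Kera) against 33.8% of all promoters, and in Prelp it began 15 bases before the start. CANNTG was found in 4 members (Fmod, Ogn, Aspn and Bgn) against 66.2%, and Ogn alone had 3 copies. Neither TGANTCA, in 6.75% of all promoters, nor CAGACA, in 17.1%, was in any of the 7. The GC content ran down to 30% in Aspn around a median of 52.4% for all promoters, and Omd had no match to any of these motifs. The RefSeq start lay 326 bases inside the GENCODE gene in Kera and 13 in Prelp, 31 bases before it in Ogn, 1 before it in Bgn, and at it in Fmod, Aspn and Omd. These matches describe letters only and say nothing of a factor's binding.

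The library of replicate 1 held 36952277 expected counts and that of replicate 2 held 38754338, and a count of 0 allows up to 3 reads in each library (counting error only). The tissue label was met by the muscle fibre markers: 10 such genes, among them Acta1, Ckm and Myh4, each exceeded 1 TPM in both animals and summed to 96750 TPM in replicate 1 and 101589 in replicate 2. TPM is a relative abundance scaled by transcript length, so levels can be set side by side between genes. In all, 11632 genes had a mean expected count of at least 50, the minimum for comparing the animals. Differences between animals are log2 ratios, replicate 1 over replicate 2, of TPM plus 0.1. A gene was called when its ratio was at least 2-fold and the deposited credibility intervals of its TPM did not overlap.

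The family was led by Dcn. The 9 genes took 21504 reads (0.0582% of counts) in replicate 1 and 15537 (0.0401%) in replicate 2. Summed, they reached 324 TPM in replicate 1 and 239 in replicate 2, a mean of 282 ± 60.1 TPM (SD, n = 2). Replicate 1 was the higher animal for every member in deposited TPM, though not for Bgn and Prelp when scaled by the spike-ins. In bulk RNA, more cells of a type and more RNA per cell cannot be told apart.

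Among class I genes, Dcn (decorin, which binds fibrils and transforming growth factor beta) was the most abundant member, at 157 TPM in replicate 1 and 116 in replicate 2. It made up 48.4% of the summed member level in replicate 1 and 48.5% in replicate 2, nearly the same part of the family in both animals. The deposited intervals of its TPM, 151 to 158 in replicate 1 and 111 to 117 in replicate 2, were well apart. By mean TPM it ranked 402 among the 11349 genes whose mean reached 1 TPM. Bgn (biglycan, the closest relative of decorin, which also binds the dystrophin-associated complex in mouse muscle) had 51.5 TPM in replicate 1 and 47.9 in replicate 2. Its deposited intervals overlapped, 47.9 to 54.4 TPM in replicate 1 and 44.4 to 51.0 in replicate 2. Bgn therefore took a smaller part of the family in replicate 1, 15.9%, than in replicate 2, 20.0%. Aspn (asporin, which lacks the sugar chains of its relatives) had 9.98 TPM in replicate 1 and 8.26 in replicate 2, with intervals of 9.08 to 10.5 TPM (replicate 1) and 7.44 to 8.76 (replicate 2) that did not meet.

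Fmod (fibromodulin, a tendon-rich keratan sulfate member with sulfated tyrosines) was the leading class II gene, at 57.2 TPM in replicate 1 and 32.5 in replicate 2. The animals were well apart for it, with intervals of 54.5 to 57.8 TPM in replicate 1 and 30.8 to 33.2 TPM in replicate 2. Lum (lumican, which competes with fibromodulin for a site on collagen) had 11.0 TPM in replicate 1 and 8.54 in replicate 2, with intervals of 10.1 to 11.6 TPM (replicate 1) and 7.75 to 9.04 (replicate 2) that were also apart. Kera (keratocan, best known from the cornea) was detected in this muscle at 9.45 TPM in replicate 1 and 6.18 in replicate 2, from 651 reads in replicate 1 and 427 in replicate 2. Its intervals did not overlap either, at 8.56 to 9.98 TPM in replicate 1 and 5.49 to 6.63 in replicate 2. Prelp (an arginine- and proline-rich member that binds heparan sulfate of basement membranes) differed least on the deposited scale (Aspn under spike-in scaling), at 8.42 TPM in replicate 1 and 8.08 in replicate 2. Omd (osteomodulin, an acidic protein of bone matrix) was the scarcest member at 1.40 TPM in replicate 1 and 0.87 in replicate 2, from 76 reads in replicate 1 and 44 in replicate 2. The intervals of both Prelp and Omd overlapped between the animals.

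Ogn (osteoglycin, also called mimecan), the class III gene, had 18.2 TPM in replicate 1 and 10.9 in replicate 2. Its intervals were apart, at 16.9 to 18.7 TPM in replicate 1 and 9.94 to 11.4 TPM in replicate 2. Across the classes, the 5 class II genes summed to 87.5 TPM in replicate 1 and 56.2 in replicate 2, and the 3 class I genes to 219 TPM in replicate 1 and 172 in replicate 2. On the log2 scale the class II sum was 0.64 higher in replicate 1, class III 0.74 and class I 0.34. The class II sum was mostly Fmod, at 57.2 of 87.5 TPM in replicate 1 and 32.5 of 56.2 in replicate 2. The class I sum was mostly Dcn, and class III is 1 gene. Single ratios ran from 0.06 (Prelp) to 0.81 (Fmod) in class II and from 0.10 (Bgn) to 0.44 (Dcn) in class I. These spans overlapped, so the sums do not set the classes apart.

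**Figure D1:**
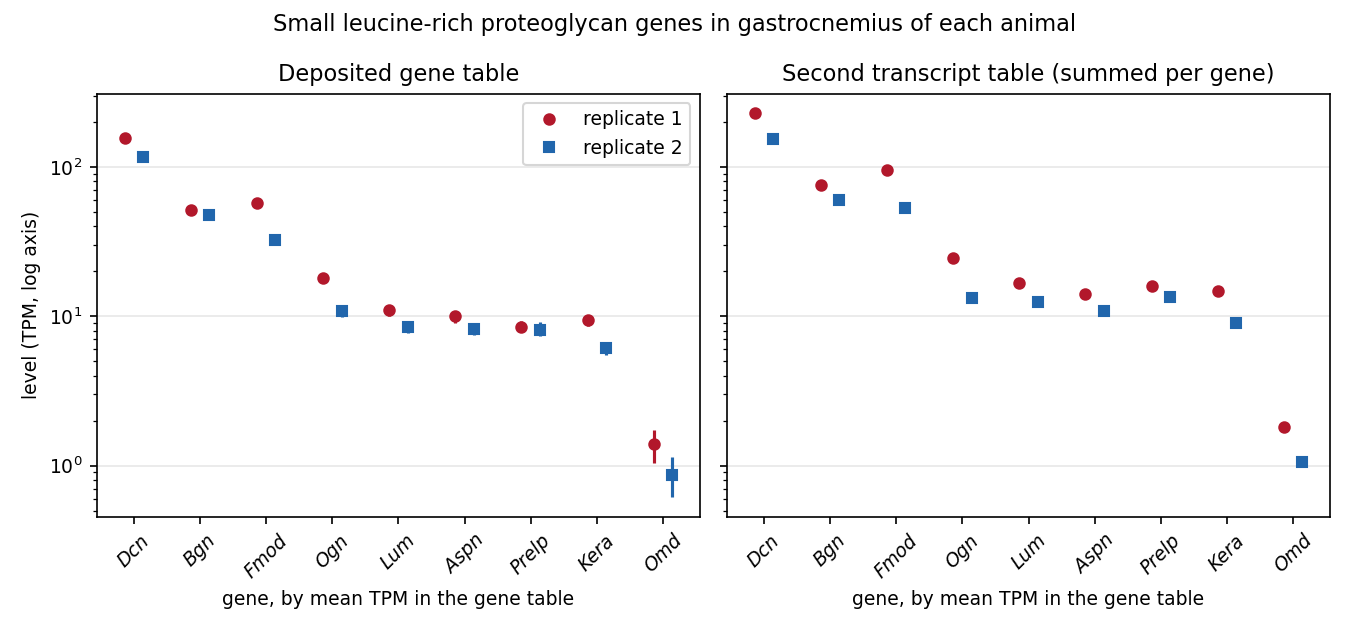
Level of each of the 9 genes in TPM (log axis) in replicate 1 and replicate 2, in the deposited gene table (left, with bars for the deposited credibility intervals) and summed over the second transcript table (right, no intervals). In the gene table Dcn is highest (157 TPM in replicate 1, 116 in replicate 2) and Omd lowest (1.40 in replicate 1, 0.87 in replicate 2), and replicate 1 is above replicate 2 in every gene on this scale (Bgn and Prelp turn when scaled by the spike-ins).

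Ordered by mean TPM, the members ran Dcn (137 ± 29.0), Bgn (49.7 ± 2.55), Fmod (44.8 ± 17.5), Ogn (14.5 ± 5.15), Lum (9.79 ± 1.77), Aspn (9.12 ± 1.22), Prelp (8.25 ± 0.240), Kera (7.82 ± 2.31) and Omd (1.14 ± 0.375; SD, n = 2 each). Only at 3 steps of this order did the ranges over the animals not meet: Dcn was 2.75 times Bgn, Fmod 3.09 times Ogn, and Kera 6.89 times Omd in mean TPM. At all other steps the ranges overlapped, from Ogn through Lum, Aspn and Prelp to Kera as well as Bgn with Fmod. These ranges pool the animals, and every member was higher in replicate 1. Within each animal of the gene table, Ogn, Lum and Aspn kept places 4, 5 and 6. The deposited intervals of Ogn lay above those of Lum in each animal. They were 16.9 to 18.7 against 10.1 to 11.6 TPM in replicate 1, and 9.94 to 11.4 against 7.75 to 9.04 in replicate 2. Fmod exceeded Bgn in replicate 1, at 1.11 times its TPM, and was below it in replicate 2, at 0.678 times. Kera and Prelp changed places in the gene table only, with Kera at 1.12 times Prelp in replicate 1 and 0.765 times in replicate 2. Their deposited intervals overlapped in replicate 1. In the second transcript table Kera was below Prelp in both animals, at 0.933 times in replicate 1 and 0.678 times in replicate 2. By mean TPM that table also put Fmod above Bgn and Prelp above Lum. Ogn over Omd was 13.0 in replicate 1 and 12.5 in replicate 2. That ratio is loosely fixed, since the Omd intervals were wide, at 1.04 to 1.73 TPM in replicate 1 and 0.614 to 1.14 in replicate 2.

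In deposited TPM every member was higher in replicate 1, by log2 ratios of 0.06 to 0.81 with a median of 0.44. None of the 9 passed the 2-fold rule, which 1.76% of the 11632 genes passed with replicate 1 higher and 0.447% with replicate 2 higher, 2.21% in all. TPM was higher in replicate 1 for all 9 members and for 49.0% of the 11632 genes. The deposited intervals were apart for 6 of the 9 (Dcn, Aspn, Lum, Fmod, Kera and Ogn), all with replicate 1 higher, beside 9.39% of the 11632 genes apart in that direction and 9.50% in the other. The median log2 ratio over the 13033 genes whose mean reached 0.5 TPM was close to 0. In the gene table Fmod had the highest ratio of the members, 0.81, followed by Ogn at 0.74 (in the second table Ogn led at 0.88, with Fmod at 0.85), then Omd at 0.63 and Kera at 0.60. Dcn at 0.44, Lum at 0.37 and Aspn at 0.27 lay between, and Bgn at 0.10 and Prelp at 0.06 were nearly level. Scaled instead by the spike-in share of counts, which was 0.614% in replicate 1 and 0.527% in replicate 2, the median of all genes moved by -0.22. Under that scaling Bgn (-0.11) and Prelp (-0.16) were lower in replicate 1 and 4 members had intervals apart with replicate 1 higher (Dcn, Fmod, Kera and Ogn), beside 4.13% of all 11632 genes in that direction and 27.8% in the other, while all 9 still lay above the median of all genes. Ratios of other genes given below are on the deposited scale and would shift by the same -0.22. With that shift no gene of the 8 lists of related genes passed the 2-fold rule with replicate 1 higher, and 1, the receptor gene Kdr, passed with replicate 2 higher.

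The genes sit in 3 clusters plus Bgn alone on the X chromosome, and levels differed widely within each cluster. On chromosome 10 (mm10), Dcn (97479609 to 97518143), Lum (97565128 to 97572703) and Kera (97606879 to 97613692) lie in a row on the plus strand with gaps of 47.0 and 34.2 kb. Dcn was 13.9 times Lum in mean TPM, while Lum was 1.25 times Kera. Epyc (epiphycan, a class III gene of cartilage), 30.4 kb past Kera on the same strand, had 9 reads in replicate 1 and 3 in replicate 2, or 0.18 TPM in replicate 1 and 0.06 in replicate 2. Kera was thus 65.1 times its next neighbour Epyc.

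On chromosome 13, Ecm2, Aspn (49544443 to 49567565), Omd (49582462 to 49592822) and Ogn (49608046 to 49624501) lie on the plus strand within 120 kb, with gaps of 11.7, 14.9 and 15.2 kb. Levels alternated along the row. Ecm2, a leucine-rich matrix gene, had 4.17 TPM in replicate 1 and 3.85 in replicate 2, below Aspn, which was 8.04 times Omd in mean TPM, and Ogn was again above Omd. All 4 lie inside Cenpp, a centromere protein gene on the minus strand, which had 7 reads (0.17 TPM) in replicate 1 and 12 reads (0.35 TPM) in replicate 2. The sources used here do not say whether the counting used strand, so reads over shared bases cannot be split between the strands.

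On chromosome 1, Prelp (133910304 to 133921414, minus strand) and Fmod (134037254 to 134048277, plus strand) lie 116 kb apart and point away from each other. Optc (opticin, a class III gene of the eye) is 2.30 kb from Prelp and had 3 reads (0.06 TPM) in replicate 1 and 1 read (0.02 TPM) in replicate 2. Fmod was 6.79 times Prelp in replicate 1 and 4.02 times in replicate 2, and the log2 ratios of this pair differed by 0.76. Of the other genes in the spans, Gm15851, Gm18970, 4930473O22Rik and Gm10754 had no reads in either animal, and Gm1627 had 0 in replicate 1 and 3 in replicate 2. Bgn, on chromosome X at 73483602 to 73495933, had no other gene within its span.

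The 9 genes have 24 annotated transcripts, and the forms that encode the whole protein carried most of the level. Lum, Kera and Ogn have 1 transcript each. In the first transcript table, made from alignments, 5 members had at least 90% of their TPM in 1 transcript in both animals, and in the second, made from the reads and an index, 3 had. Those 3 were the members with a single transcript.

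For Dcn the tables gave different splits. Dcn-201 and Dcn-202 share 7 of 8 exons and all coding exons, and differ in a noncoding first exon of 181 bases that lies 2758 bases further along in Dcn-202. In the first table Dcn-201 took 78.4% of the gene in replicate 1 and 69.5% in replicate 2, and Dcn-202 took 20.9% in replicate 1 and 28.9% in replicate 2. In the second table the 2 transcripts had the same value, each with 115 TPM in replicate 1 and 76.3 in replicate 2. A use of the upstream over the downstream first exon cannot be read from these values. Full-length coding forms made up 99.3% of Dcn in replicate 1 and 98.5% in replicate 2 in the first table, and 99.4% in replicate 1 and 98.6% in replicate 2 in the second.

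Aspn-201 and Aspn-202 encode the same protein, and the first table gave Aspn-201 89.7% in replicate 1 and 94.9% in replicate 2. The second table gave it 54.1% in replicate 1 and 100% in replicate 2. The size of the shift between animals thus depended on the table, and a change in the form used cannot be read from these values. Both forms have the same coding exons. Omd also has a pair of forms with the same coding exons, and which of them led changed with the table: Omd-201 had 62.9% in replicate 1 and 79.1% in replicate 2 in the first, while Omd-202 had 78.3% in replicate 1 and 67.3% in replicate 2 in the second. The Omd shares rest on 76 reads in replicate 1 and 44 in replicate 2.

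Bgn-201, the full-length form, took 83.4% of Bgn in replicate 1 and 79.0% in replicate 2 in the first table, and 82.6% in replicate 1 and 83.9% in replicate 2 in the second. The remainder was given to different noncoding forms, Bgn-208 (15.0% in replicate 1 and 19.5% in replicate 2) in the first table and Bgn-203 (16.7% in replicate 1 and 15.8% in replicate 2) in the second, where Bgn-208 had none. Fmod-201 took 98.8% in replicate 1 and 100% in replicate 2 in the first table but 86.1% in replicate 1 and 82.3% in replicate 2 in the second, the rest being the short Fmod-202. Prelp-201 took 100% in replicate 1 and 95.3% in replicate 2 in the first table and 71.4% in replicate 1 and 72.3% in replicate 2 in the second, where the short noncoding Prelp-202 took the rest. In estimated counts, Prelp-202 had 56.7 in replicate 1 and 49.0 in replicate 2 in the second table, beside 953 in replicate 1 and 868 in replicate 2 for Prelp-201. The second table still put all 9 members higher in replicate 1, with a median log2 ratio of 0.58.

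**Figure D2:**
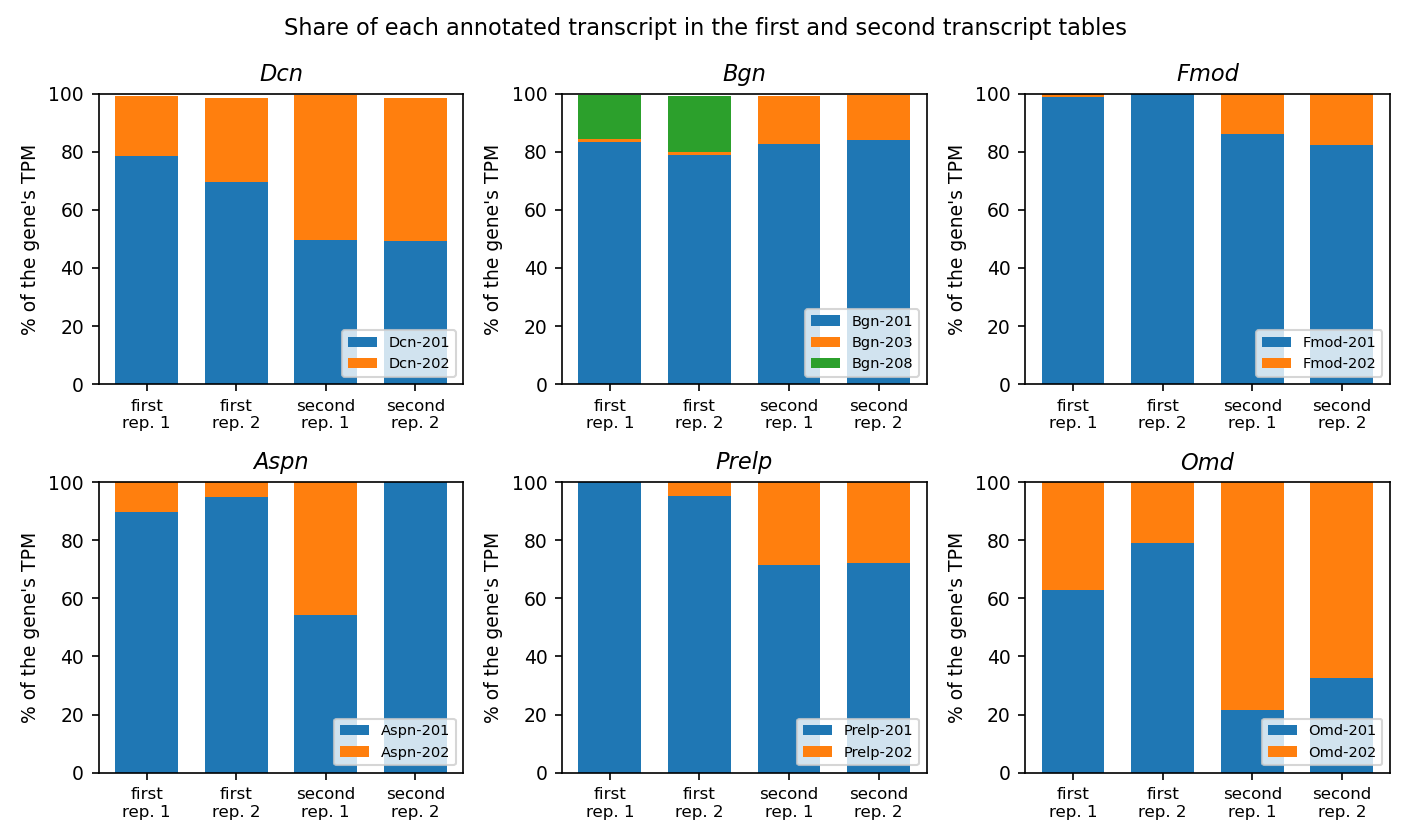
Percent of each gene's TPM given to each annotated transcript, for the 6 members with more than 1 transcript, by transcript table and animal; each bar is 1 library in 1 table. Dcn splits evenly in the second table (49.7% in replicate 1 and 49.3% in replicate 2 for each main form) but not in the first.

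Other members of the superfamily were mostly scarce. Of 8 such genes, 3 had at least 1 TPM in both animals. Chad (chondroadherin, a cartilage and tendon protein that binds collagen) had 12.8 TPM in replicate 1 and 5.95 in replicate 2, or 1.09 as a log2 ratio, and was the only 1 past the 2-fold rule among the 3 that reached the count minimum, a call lost under spike-in scaling. Its mean of 9.36 TPM lay between those of Lum and Aspn, but Chad was above both in replicate 1 and below both in replicate 2. Podn (podocan), at 3.70 TPM in replicate 1 and 3.74 in replicate 2, was nearly level between the animals, as Prelp and Ecm2 were. Podnl1 had 2 reads in replicate 1 and 0 in replicate 2, and Nyx and Optc were below 0.1 TPM in both animals.

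The fibril collagens and their partners were higher in replicate 1 in deposited TPM, like the members. All 19 genes of this list had intervals apart with replicate 1 higher, with a median log2 ratio of 0.59, and 3 passed the 2-fold rule. These were Col1a1 and Col1a2, the chains of type I collagen, and Lox, the collagen cross-linking enzyme, which was picked after its values were seen. Scaled by the spike-ins, none of the 3 passed, and 18 of the 19 genes still had intervals apart. Col1a1 had 730 TPM in replicate 1 and 326 in replicate 2, and Col1a2 453 TPM in replicate 1 and 220 in replicate 2. Thbs2, a matricellular protein that shapes fibrils, had 4.73 TPM in replicate 1 and 2.68 in replicate 2. The 9 members together were thus 0.444 times Col1a1 in replicate 1 and 0.735 times in replicate 2, and 0.862 times Col3a1 in replicate 1 and 1.07 times in replicate 2. Proteoglycan level per type I collagen level was lower in replicate 1, although both were higher there.

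The enzymes that build the chains of decorin and biglycan gave few intervals apart, in both directions. Of 22 genes for the linkage region and for chondroitin or dermatan sulfate, 18 reached the count minimum. Of these, 2 had intervals apart with replicate 1 higher and 2 with replicate 2 higher, and none passed the 2-fold rule in either direction. Beside 9.39% and 9.50% of the 11632 genes in these directions, such counts do not set the list apart. Under spike-in scaling the counts were 1 and 3, beside 4.13% and 27.8% of the 11632 genes. The median log2 ratio of the list was 0.12 on the deposited scale and -0.09 on the spike-in scale. B3gat3, which adds the last sugar of the linkage region, had 9.76 TPM in replicate 1 and 12.7 in replicate 2, and Fam20b, the xylose kinase, 10.2 TPM in replicate 1 and 12.1 in replicate 2. Chsy1, a chondroitin synthase, had 1.98 TPM in replicate 1 and 1.18 in replicate 2, and Chst13 had 2 reads in replicate 1 and 0 in replicate 2. The list summed to 59.3 TPM in replicate 1 and 58.1 in replicate 2, level between the animals and below the sum of the members.

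Enzymes for keratan sulfate and tyrosine sulfation, the modifications of Fmod and Lum, were measured for 8 genes, of which 5 reached the count minimum and 3 had intervals apart with replicate 1 higher. B4galt1, a galactosyltransferase, had 20.0 TPM in replicate 1 and 11.4 in replicate 2, and Tpst1, a tyrosine sulfotransferase, 2.92 TPM in replicate 1 and 1.61 in replicate 2. Its relative Tpst2 was somewhat lower in replicate 1, at 5.85 TPM against 6.89 in replicate 2, with intervals that overlapped. In the second table Tpst2 was nearly level, at 8.71 TPM in replicate 1 and 9.01 in replicate 2. The keratan sulfate elongating enzyme B3gnt7 had 0.01 TPM in both. Chst2, named after its values were seen, was the 1 gene of the list past the 2-fold rule, at 0.80 TPM in replicate 1 and 0.31 in replicate 2, and did not pass it under spike-in scaling.

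Proteases and enhancers reported to act on these proteins had intervals apart with replicate 1 higher in 7 of the 8 genes that reached the count minimum. Pcolce, an enhancer of procollagen processing, had 43.1 TPM in replicate 1 and 26.8 in replicate 2, and Mmp2, a gelatinase, 34.2 TPM in replicate 1 and 24.2 in replicate 2. Mmp14, a membrane-bound protease, had 9.41 TPM in replicate 1 and 4.32 in replicate 2 and passed the 2-fold rule, as did Adamts4 (0.61 TPM in replicate 1 and 0.22 in replicate 2, named after its values were seen). Scaled by the spike-ins, 4 of the 8 had intervals apart and neither passed the 2-fold rule. Gzmb had no reads in either library.

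Ligand and receptor genes had median log2 ratios of 0.18 (transforming growth factor beta list) and 0.19 (receptor list), against 0.44 for the members, and of 0.38 and 0.41 in the second table, against 0.58. Of 12 genes for transforming growth factor beta signalling, 3 had intervals apart with replicate 1 higher and none passed the 2-fold rule. Ltbp4, a latent growth factor binding protein, had 29.0 TPM in replicate 1 and 25.2 in replicate 2, and the signal transducer Smad3 24.3 TPM in replicate 1 and 23.1 in replicate 2. Among the ligands Tgfb3, named after its values were seen, was the highest, at 14.0 TPM in replicate 1 and 10.5 in replicate 2, with intervals apart. Tgfb2 had 6.38 TPM in replicate 1 and 4.33 in replicate 2, and Tgfb1 3.35 TPM in replicate 1 and 2.43 in replicate 2. The intervals of both Tgfb2 and Tgfb1 overlapped between the animals. Of 13 receptors reported for the family, 10 reached the count minimum and 1 had intervals apart, Kdr, an endothelial growth factor receptor, at 2.69 TPM in replicate 1 and 5.12 in replicate 2. Under spike-in scaling Kdr passed the 2-fold rule, with replicate 2 higher. Lrp1 (23.4 TPM in replicate 1, 19.7 in replicate 2) and Lrp6 (16.5 in replicate 1, 14.6 in replicate 2) were the most abundant receptors of the list, and Tlr2, a receptor for soluble biglycan, had 0.27 TPM in replicate 1 and 0.21 in replicate 2.

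Proteoglycans outside the family gave a mixed picture. Of 15 genes, 13 reached the count minimum, and of these 5 had intervals apart with replicate 1 higher and 1 with replicate 2 higher. Under spike-in scaling the counts were 3 and 1. Gpc1, a cell surface heparan sulfate proteoglycan, had 96.6 TPM in replicate 1 and 108 in replicate 2, and Hspg2, the basement membrane proteoglycan perlecan, 42.7 TPM in replicate 1 and 38.4 in replicate 2. Sdc4, a syndecan, had 39.1 TPM in replicate 1 and 20.4 in replicate 2, while Acan, the large proteoglycan of cartilage, was near 0.1 TPM in both. In level, only Gpc1 among these lay between Dcn and Bgn in both animals.

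**Figure D3:**
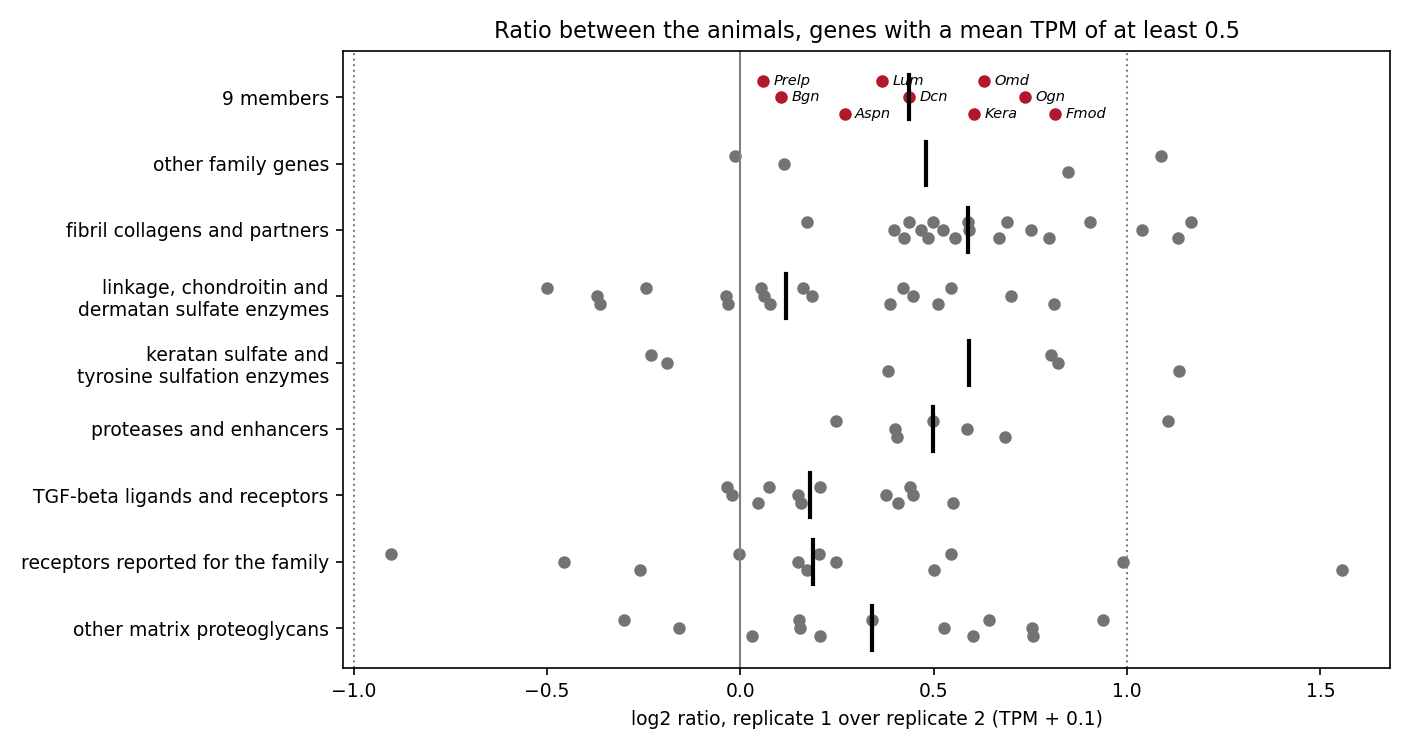
Log2 ratio, replicate 1 over replicate 2, of TPM plus 0.1 for the 9 members and the genes of 8 lists with a mean of at least 0.5 TPM; black bars are medians and dotted lines mark 2-fold. The members run from 0.06 to 0.81 around a median of 0.44, below the collagen list at 0.59, and Bgn and Prelp fall below 0 if scaled by the spike-in share.

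Markers of several cell types were higher in replicate 1 along with the members. All 9 fibroblast markers had intervals apart with replicate 1 higher (6 under spike-in scaling, with 1 the other way) and summed to 1835 TPM in replicate 1 and 996 in replicate 2, and 4 of them (Col1a1, Col1a2, Col3a1 and Dpt) are also in the collagen list. The 8 tendon markers summed to 107 TPM in replicate 1 and 74.8 in replicate 2 with a median log2 ratio of 1.07, and 5 of them passed the 2-fold rule. Under spike-in scaling their median was 0.85 and 2 passed (Mkx and Col11a1). Of the tendon transcription factors, Mkx had 2.43 TPM in replicate 1 and 0.64 in replicate 2, and Scx 4.72 in replicate 1 and 3.86 in replicate 2, with intervals that overlapped for Scx. In the second table Scx had 7.37 TPM in replicate 1 and 4.49 in replicate 2. The 9 Schwann cell markers summed to 482 TPM in replicate 1 and 111 in replicate 2, with 8 past the 2-fold rule (7 under spike-in scaling). Of the 5 perineurial markers, which summed to 8.92 TPM in replicate 1 and 4.76 in replicate 2, 3 reached the count minimum and all 3 had intervals apart with replicate 1 higher (0 under spike-in scaling), and Lmo3 was at 0. Macrophage markers summed to 64.8 TPM in replicate 1 and 45.9 in replicate 2, with 5 of the 7 that reached the count minimum apart (4 under spike-in scaling). Satellite cell markers summed to 46.2 TPM in replicate 1 and 26.8 in replicate 2, but to 7.12 in replicate 1 and 6.41 in replicate 2 without Sdc4. The defining satellite cell factor Pax7 had 0.61 TPM in replicate 1 and 0.70 in replicate 2, and Myf5 had 0.54 in replicate 1 and 0.92 in replicate 2.

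Adipocyte markers ran the other way, at 29.8 TPM in replicate 1 and 53.2 in replicate 2. Of the 5 that reached the count minimum, 4 had intervals apart with replicate 2 higher, and 2 of these (Cidec and Pck1) passed the 2-fold rule. Under spike-in scaling 4 passed it, all with replicate 2 higher. Endothelial markers summed to 63.0 TPM in replicate 1 and 75.8 in replicate 2, with 3 of 7 genes apart and higher in replicate 2, but in the second transcript table they were nearly level, at 109 TPM in replicate 1 and 111 in replicate 2. In the gene table, smooth muscle and pericyte markers summed to 193 TPM in replicate 1 and 163 in replicate 2. Their median log2 ratio was -0.02, with 3 genes apart and higher in replicate 1 and 1 in replicate 2. Under spike-in scaling these were 2 with replicate 1 higher and 4 with replicate 2 higher. Cartilage and bone markers were low, summing to 3.16 TPM in replicate 1 and 0.92 in replicate 2 over 8 genes, with Matn1, Col10a1 and Ibsp at 0 in both. Col2a1, the type II collagen of cartilage and the only gene of this list to reach the count minimum, had 2.63 TPM in replicate 1 and 0.75 in replicate 2, a log2 difference of 1.68. It passed the 2-fold rule with replicate 1 higher, on the spike-in scale too. The part that the mix of cells had in the members' ratios was not tested, since 2 libraries cannot separate it from the animals.

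**Figure D4:**
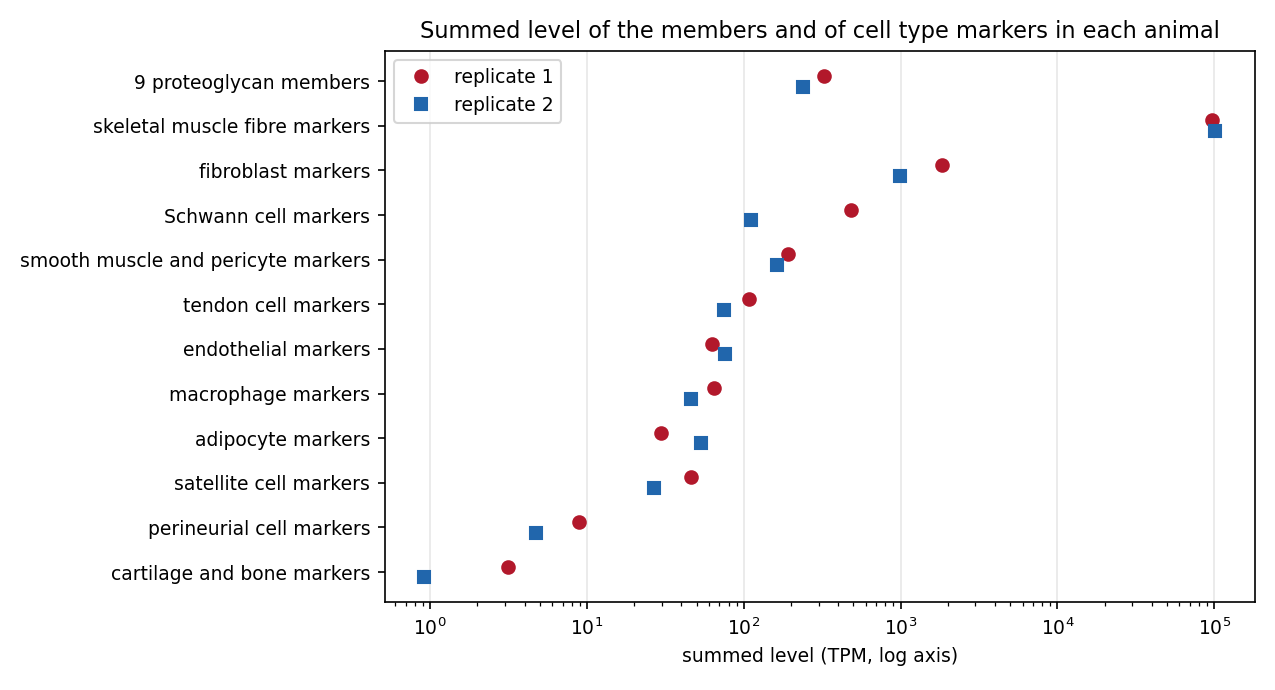
Summed TPM (log axis) of the 9 members and of 11 marker lists in replicate 1 and replicate 2. The members (324 TPM in replicate 1, 239 in replicate 2) are higher in replicate 1, as are fibroblast (1835 in replicate 1, 996 in replicate 2), tendon and Schwann markers, while adipocyte markers (29.8 in replicate 1, 53.2 in replicate 2) are lower.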

How the data were processed

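Total RNA-seq of gastrocnemius from 2 animals was analysed. Per the file headers and deposited notes, the gene table and first transcript table came from transcriptome alignments on mm10 with GENCODE M21, and the second transcript table from reads and an index; the software used was not given in the sources used here. As deposited by the authors, the values are expected counts (estimated reads, not rounded here because no count model was fitted), TPM over all listed features, FPKM, a posterior mean TPM and credibility bounds of TPM of unstated level. Deposited FPKM served only as an alternative.

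The members and all gene lists were chosen with earlier results of these data known. Log2 ratios used a pseudocount of 0.1. Genes with a mean expected count of at least 50 were called at 2-fold with intervals apart. Of each list up to 4 genes are named: the 2 highest by mean TPM, the lowest, and the one with the largest absolute log2 ratio at a mean of at least 1 TPM. Some were named outside that rule: neighbours of members, genes that make up a count of 3 or fewer, Podn, Nyx, Tgfb3, Dpt, Col3a1, Scx, Mkx, Pax7, Myf5, examples of fibre markers and the markers at 0.

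The libraries were not a single library under both names: their counts differed by a chi-square of 44.3 per degree of freedom over 11632 genes. Promoters came from RefSeq (GRCm38.p6), gene structures from GENCODE. Alternatives were the other tables, the posterior mean, FPKM, other scalings, filters and pseudocounts. Python 3.11.15, pandas 2.3.3, numpy 2.4.6 and matplotlib 3.10.9 were used. The calling steps were run on simulated counts with counting noise only. That simulation held no variation between animals, so it cannot show how often such variation gives a call. Credibility bounds and the floor of 3 reads (0.0812 CPM in replicate 1, 0.0774 in replicate 2) cover counting and read assignment only.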

Additional observations from a re-analysis of the deposited data

How the results depend on the processing

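With 1 animal a side, no ratio here has a replicate check. None of the 9 members passed the 2-fold rule under any of the alternatives run (both transcript tables, posterior mean, FPKM, pseudocount 1, 2 scalings, no count filter and a count minimum of 200). The summed level of 282 TPM was 409 in the second transcript table and 686 when rescaled over nuclear protein-coding genes, and 239 to 324 with either replicate left out. The median log2 ratio of 0.44 was 0.58 in the second table, 0.51 rescaled over nuclear protein-coding genes, 0.22 scaled by spike-ins, 0.50 from FPKM, 0.36 with a pseudocount of 1 and 0.40 over members of at least 5 TPM. The cause was not tested. Of 63 member ratios (9 members in 7 alternative tables, values or scalings), 2 were below 0, Bgn (-0.11) and Prelp (-0.16), both under the spike-in scaling. The members' median exceeded that of all genes by 0.36 to 0.48. The 6 members with intervals apart became 4 under spike-in scaling and stayed 6 in number under the protein-coding scaling, without a count filter and with a minimum of 200, all of which were added after seeing the data, as were the spike-in calls and second-table sums of the other lists. Members with at least 90% in 1 transcript were 5 in the first and 3 in the second transcript table. Omd, with 76 reads in replicate 1 and 44 in replicate 2, is the member that depth limits most. No paired analysis was possible because the series has 1 group.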
